A study of Bos indicus with 9 samples.

Results

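DLX1, DLX2 and GAD1 lie close together on chromosome 2 of cattle, and the open chromatin around them was described in hypothalamus, muscle and liver. The members are all peaks of the 3 deposited ATAC-seq peak lists that overlap positions 24200000 to 26400000 of chromosome 2 on the ARS-UCD1.2 build, a window of 2.2 Mb chosen for its genes and not for its peak values. There were 75 such peaks of 140923 in the 3 lists, with 53 of 78528 from hypothalamus, 17 of 40104 from muscle and 5 of 22291 from liver. ATAC-seq uses the Tn5 transposase to cut open DNA, and a peak is a stretch where the cuts pile up. The libraries came from frozen hypothalamus, muscle and liver of the same 3 Brahman (Bos indicus) heifers, unrelated to each other, past puberty and alike in age and weight, with no treatment and 9 libraries in all.

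Each list is 1 consensus that the authors made from the 3 heifers of a tissue. A peak comes with its position, its AUC (area under the curve, the sum along the peak of the combined −log10 p above the calling threshold) and its −log10 p at the summit, and values of single heifers are not part of the list. The tissues could therefore not be tested against each other, and values are given with their percentile in the own list, from 0 for the lowest summit to 100 for the highest. Neither AUC nor summit −log10 p was scaled between tissues, and the part that library depth plays in either was not tested. In bulk tissue, fewer nuclei with a site open and a site less open in each nucleus cannot be told apart.

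DLX1 and DLX2 encode homeodomain transcription factors that drive the formation of GABAergic neurons, the inhibitory neurons of the brain. They form a pair transcribed toward each other, and in mammals they are known to share enhancers in and around the pair. GAD1 encodes glutamate decarboxylase 67, the enzyme that makes GABA from glutamate, and is a standard marker of these neurons. The hypothalamus is rich in GABAergic neurons, while skeletal muscle fibres and hepatocytes are not known for any of these genes. Active promoters and enhancers both appear as ATAC-seq peaks, and promoters of genes used by most cells are usually open in every tissue.

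Most peaks of the window came from the hypothalamus list, which is also the longest of the 3. Of its 53 hypothalamus peaks, 43 overlapped no peak of muscle or liver by even 1 bp, which is 81.1% (Wilson 95% interval 68.6 to 89.4). Over chromosomes 1 to 29 and X the share was 74.8%, and over the whole list, unplaced sequence included, it was 67.9%. On chromosome 2 alone it was 78.0%. In muscle, 6 of 17 peaks had no overlap, 35.3% (17.3 to 58.7), beside 36.0% on the chromosomes and 28.5% in the whole list. In liver it was 1 of 5 peaks, 20.0% (3.62 to 62.4), beside 7.78% and 9.93%. The chromosome-wide share lay inside the interval of the window in each tissue, and of the whole-list shares only that of hypothalamus lay just outside it. The lists differ in length, and with the 22291 strongest peaks of each list the window held 15 hypothalamus, 10 muscle and 5 liver peaks. Of these, 8, 3 and 1 had no overlap. The share without overlap over all peaks at that setting was not computed, so these counts have no background beside them. Lists equal in total need not be equal on the chromosomes. Of the 22291 liver peaks, 12063 lay on chromosomes 1 to 29 and X, and the cut hypothalamus and muscle lists were not counted there.

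Joined where they overlapped, the 75 peaks formed 60 regions. Hypothalamus alone held 43 of them, muscle alone 6 and liver alone 1. A further 6 were open in hypothalamus and muscle, and 4 in all 3 tissues. No region was shared by muscle and liver, or by hypothalamus and liver, without the third tissue. Of liver peaks on chromosomes 1 to 29 and X, 12.9% overlapped exactly 1 other tissue. The window had 0 of 5 such liver peaks (Wilson interval 0 to 43.4), too few to tell from that share. Of hypothalamus peaks, 11.3% in the window overlapped 1 other tissue and 7.55% both, beside 12.3% and 12.9% on the chromosomes. Both chromosome-wide shares lay inside the Wilson intervals of the window (5.29 to 22.6 and 2.97 to 17.9).

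The window was not denser in peaks than the rest of the genome. Hypothalamus had 24.1 peaks per Mb (exact Poisson 95% interval 18.0 to 31.5), against 27.1 over chromosomes 1 to 29 and X and 24.0 on chromosome 2. Muscle had 7.73 per Mb (4.50 to 12.4) against 11.6 and 10.3. Liver had 2.27 per Mb (0.738 to 5.30) against 4.59 and 3.56. Muscle and liver were thus below the genome-wide density in this window, by less than the counting error. Hypothalamus peaks covered 42.3 kb of the window (1.92%), muscle peaks 8.98 kb (0.408%) and liver peaks 3.44 kb (0.156%). These intervals, like the Wilson intervals, cover counting error only and take peaks as independent of each other.

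**Figure D1:**
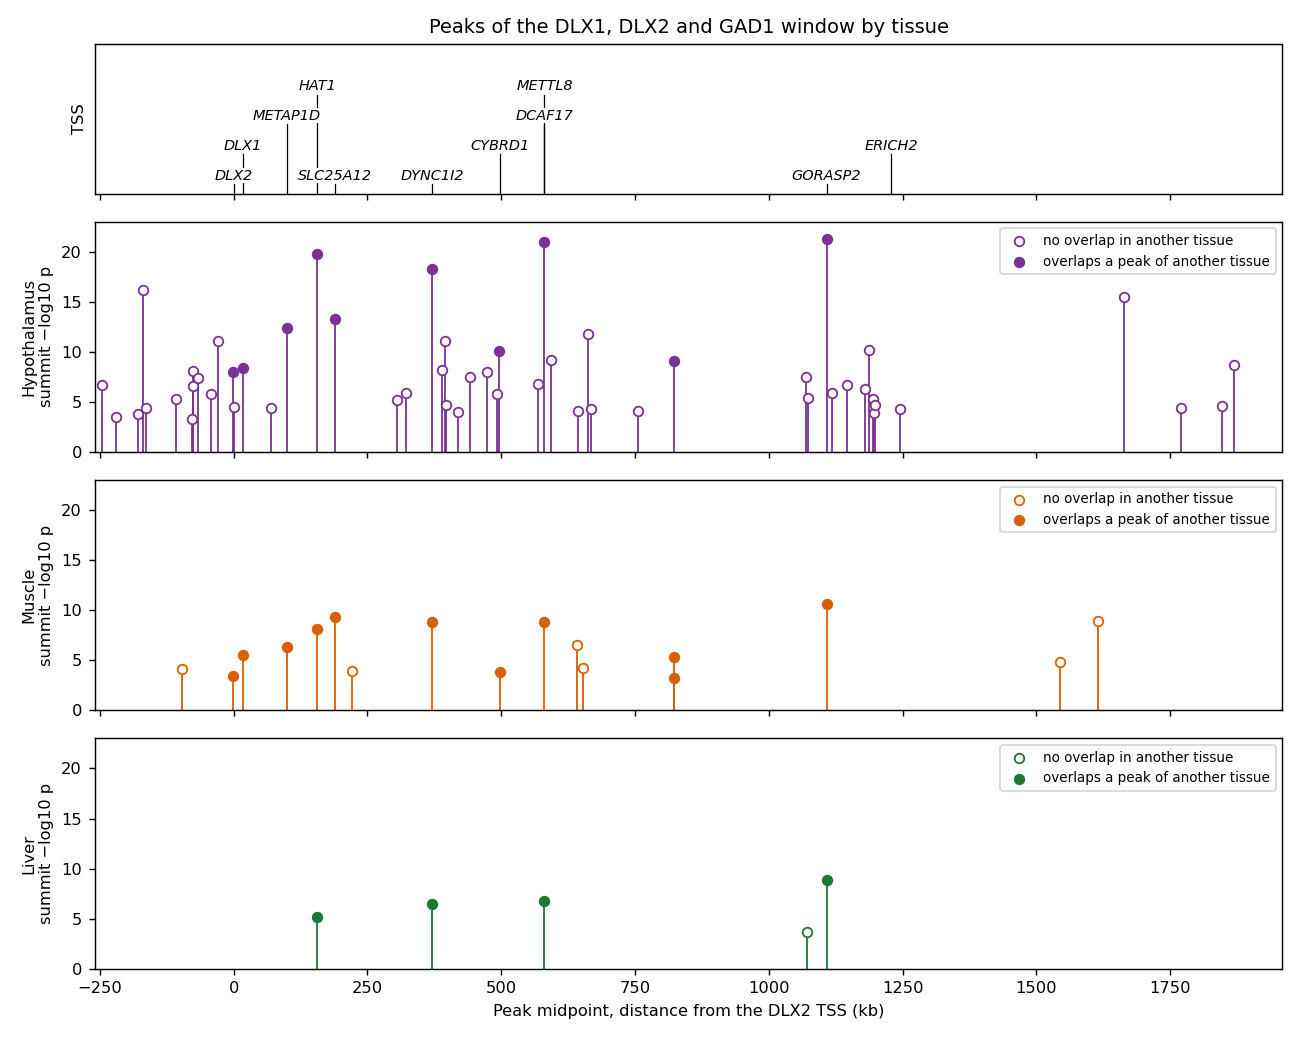
Summit −log10 p of each peak (vertical axis) against the distance of its midpoint from the DLX2 start site in kb (horizontal axis), in 1 panel per tissue, with the start sites of the 11 placed genes on top. Open circles are peaks with no overlap in another tissue and filled circles are shared peaks: 43 of 53 hypothalamus circles are open, while liver has 5 peaks, 4 of them filled.

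The start site of DLX2 was bracketed by a pair of hypothalamus peaks. The first, at chr2:24447226-24447512, was 287 bp long and ended 1113 bp upstream of the start site. It had an AUC of 954 and a summit −log10 p of 7.96, at percentile 67.6 of the hypothalamus list. The second, at chr2:24448461-24449258, covered the start site itself and reached into the gene, with an AUC of 668 and a summit of 4.50 at percentile 25.4. The peak on the start site was thus the weaker of the pair by summit, although it was the longer one at 798 bp.

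Muscle had a peak only at the upstream site. This peak, at chr2:24447311-24447483, lay wholly inside the hypothalamus peak with its summit 25 bp away, and the authors annotated it as promoter. Its AUC was 202, where the lowest AUC in the muscle list was 200.0, and its summit of 3.47 was at percentile 3.96. It was therefore among the weakest peaks deposited for muscle. The DLX2 start site itself had no muscle peak, and its hypothalamus peak was 978 bp from the muscle peak.

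DLX1 runs toward DLX2 from the other side, and a single hypothalamus peak covered its start site. This peak, at chr2:24465748-24466970, was 1223 bp long, with an AUC of 2211 and a summit of 8.38 at percentile 70.0. A muscle peak at chr2:24466233-24466487 lay inside it, 3 bp from the start site, with an AUC of 565 and a summit of 5.57 at percentile 53.7. The summits of both tissues were 24 bp apart. Of the DLX pair, DLX1 had the stronger muscle peak, with a summit in the middle of the muscle list, while that of DLX2 was near its bottom.

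No liver peak lay near either gene. The nearest one was 155947 bp from the start site of DLX2 and 138342 bp from that of DLX1. No list had a peak in the 11.6 kb between the 3′ ends of DLX2 and DLX1, the stretch that holds known enhancers of the pair in other mammals. The lists hold only stretches that passed the authors' threshold, so an unlisted stretch may still be open below it.

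The 249 kb from the start of the window to DLX2 held 14 hypothalamus peaks, the pair at the start site included, 2 muscle peaks and no liver peak. The whole window, this stretch included, had 24.1 hypothalamus peaks per Mb, and chromosomes 1 to 29 and X had 27.1. This stretch had 56.3 per Mb (exact Poisson 95% interval 30.8 to 94.5). That interval takes the peaks as independent, and the difference in density was not tested. Of its 14 hypothalamus peaks, all but the one 1113 bp from the start site, 13 of 14, were found in hypothalamus alone. That is 92.9% (Wilson 95% interval 68.5 to 98.7) beside 74.8% over chromosomes 1 to 29 and X, a share inside the interval. With peaks within 1 kb counted as shared, the peak on the start site, 978 bp from the muscle peak, would be shared as well. Their summits ranged from 3.33 to 16.2, with a median of 6.22 over the 14. At equal numbers of strongest peaks per list, the lowest summit kept was 8.68 in hypothalamus and 5.05 in muscle. Of the 14, only the peaks with summits of 16.2 and 11.1 would then stay. The 2 muscle peaks, with summits of 3.47 and 4.14, would both be lost. The strongest peaks are named here after their values were seen. A peak at chr2:24278584-24279717, 168908 bp upstream of the DLX2 start site, had an AUC of 5376 and a summit of 16.2 at percentile 92.6. This was the highest summit among the 43 hypothalamus-only peaks of the window, and it exceeded the summits at the DLX1 and DLX2 start sites. A peak at chr2:24419548-24420232, 28393 bp upstream, had an AUC of 2904 and a summit of 11.1 at percentile 80.9.

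Between them, also named after their values were seen, lay a cluster of 3 peaks within chr2:24370477-24373401, the last of them 75224 bp upstream, with summits of 3.33, 8.13 and 6.65. The next peak, at chr2:24380750-24381364, had an AUC of 1784 and a summit of 7.43. The one muscle-only peak of this stretch, at chr2:24352213-24352451, had an AUC of 314 and a summit of 4.14 at percentile 21.7. Its nearest hypothalamus peak was 11858 bp away.

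**Figure D2:**
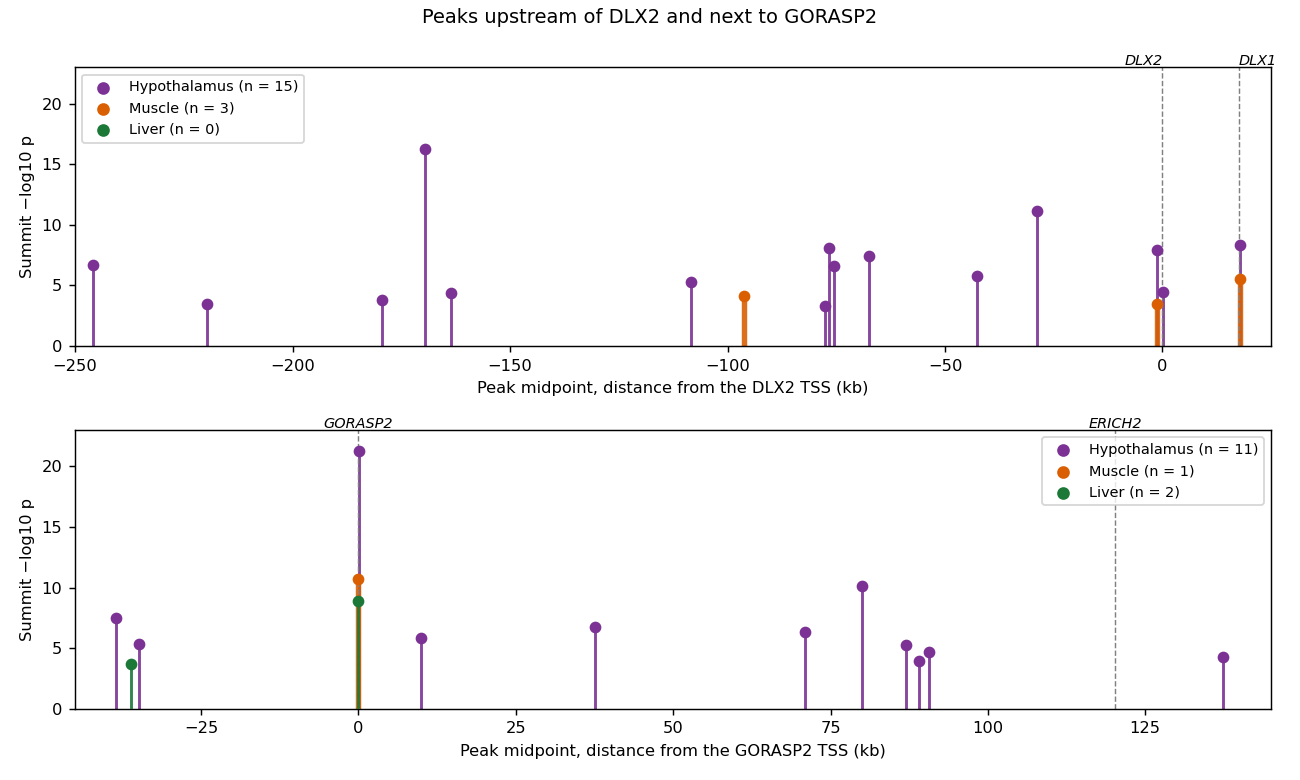
Summit −log10 p (vertical axis) of the peaks upstream of DLX2 (top, distance from the DLX2 start site in kb) and around GORASP2 (bottom, distance from the GORASP2 start site in kb), coloured by tissue, with dashed lines at start sites. The top panel holds 15 hypothalamus, 3 muscle and 0 liver peaks, and in the bottom panel the 7 peaks between GORASP2 and ERICH2 are all from hypothalamus.

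The position of GAD1 on ARS-UCD1.2 was not given in the sources used here, so no peak was assigned to its promoter or body. RefSeq genes of another indicine assembly (NIAB-ARS_B.indTharparkar_mat_pri_1.0), used here only for neighbours, place GAD1 next to GORASP2 on the side away from TLK1, followed by SP5. ERICH2 is not in that order, but lies beyond GAD1 in the human genome. The interval from 3 kb past the GORASP2 start site to ERICH2, 102 kb long, was therefore described as the GAD1 interval, with the limit that the ends of GAD1 inside it are not known.

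The GAD1 interval held 7 hypothalamus peaks and none of muscle or liver. All 7 were hypothalamus-only, 100% with a Wilson 95% interval of 64.6 to 100.0, which holds the 74.8% over chromosomes 1 to 29 and X. Their density was 68.5 peaks per Mb (exact Poisson 95% interval 27.5 to 141), beside 27.1 on the chromosomes. That interval takes the 7 peaks as independent, although 3 of them lay within chr2:25642908-25647594, and the difference in density was not tested. The strongest, at chr2:25636312-25637299, was 988 bp long with an AUC of 3090 and a summit of 10.2 at percentile 77.9. It was followed by 3 peaks within chr2:25642908-25647594, with AUCs of 1047, 287 and 369 and summits of 5.26, 3.93 and 4.70. The other 3 stood further toward GORASP2. The peak at chr2:25566348-25566903 had a summit of 5.86, the one at chr2:25593902-25594786 had 6.73, and the one at chr2:25627594-25627886 had 6.34. The group thus held 1 peak above percentile 75 of the hypothalamus list, with the other 6 between percentiles 11.2 and 58.0. From the strongest of them, the nearest muscle and liver peaks were 79220 bp away, both at the GORASP2 promoter. At equal numbers of strongest peaks per list, the lowest hypothalamus summit kept was 8.68. Only the strongest of the 7, with its summit of 10.2, would then stay.

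The stretch also fell in the longest muscle gap of the window, 436 kb without a muscle peak, in which hypothalamus had 8 peaks. ERICH2, whose product is a glutamate-rich protein, had no peak of any list within 3 kb of its start site, and its nearest hypothalamus peak was 17040 bp away.

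The 4 highest summits of the window in hypothalamus sat at the start sites of its other genes, and these 4 sites were also the ones open in all 3 tissues. Of 11 genes with a position, 10 had a hypothalamus peak within 3 kb of the start site, 10 a muscle peak and 5 a liver peak, and 5 had a peak in all 3. Over 1969 genes with a position in the part of the authors' annotation used here, the shares were 80.9% for hypothalamus, 72.2% for muscle and 61.7% for liver. In the window they were 90.9% (Wilson 95% interval 62.3 to 98.4) for hypothalamus, 90.9% for muscle and 45.5% (21.3 to 72.0) for liver. These genes have a position because a peak was annotated to them, so the shares are not those of all genes. DCAF17 and METTL8 share 1 peak in each tissue and are counted separately here.

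The GORASP2 promoter, of a Golgi stacking protein, had the highest summit of the window in every tissue. The hypothalamus peak at chr2:25555908-25557663 had an AUC of 13252 and a summit of 21.3 at percentile 98.5. The muscle peak had an AUC of 3303 and a summit of 10.7 at percentile 93.6, and the liver peak had 2561 and 8.89 at percentile 87.7. The 3 summits stood at positions 25556827, 25556829 and 25556832, within 5 bp of each other.

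DCAF17, a substrate receptor of ubiquitin ligases, and METTL8, an RNA methyltransferase, are transcribed away from each other from a shared promoter. Its hypothalamus peak, at chr2:25027765-25030282, had the largest AUC of the window, 14892, with a summit of 20.9. The muscle peak there had an AUC of 3198 and a summit of 8.83, and the liver peak had 1752 and 6.74.

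HAT1, a histone acetyltransferase, had a hypothalamus peak at chr2:24604080-24605671 with an AUC of 7697 and a summit of 19.8. In muscle the AUC was 1303 and the summit 8.13, and in liver they were 551 and 5.13. DYNC1I2, a cytoplasmic dynein intermediate chain, had its hypothalamus peak at chr2:24818622-24819890 with an AUC of 8808 and a summit of 18.3. The muscle values were 2514 and 8.80, and the liver values were 1253 and 6.46. At all 4 promoters open in every tissue the summit was highest in hypothalamus and lowest in liver.

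The promoters of METAP1D, SLC25A12 and CYBRD1 were open in hypothalamus and muscle, with no liver peak. METAP1D, a mitochondrial methionine aminopeptidase and the next gene after DLX1, had a summit of 12.4 in hypothalamus and 6.32 in muscle. SLC25A12, the mitochondrial aspartate/glutamate carrier of brain and muscle, had 13.3 and 9.32. It was the one shared region whose percentile was higher in muscle (89.0) than in hypothalamus (86.6). CYBRD1, a ferric reductase, had the longest peak of the window, 2867 bp at chr2:24943320-24946186, with a summit of 10.1. The muscle peak inside it was 220 bp long, with an AUC of 223 and a summit of 3.82 at percentile 12.7.

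Placed in this order, DLX1 and DLX2 had the lowest start-site peaks of the 10 genes with one in hypothalamus. The highest summit within 3 kb was 7.96 for DLX2 and 8.38 for DLX1, and between 10.1 and 21.3 for the other 8. In muscle the lowest was also DLX2, followed by CYBRD1 and DLX1. Within the hypothalamus list, then, the start sites of both GABAergic factors had lower summits than those of the 8 neighbours. DCAF17 and METTL8 share 1 peak, so the 8 neighbours are not 8 separate peaks. The DLX2 value is that of the peak 1113 bp upstream, and the peak on the start site itself had 4.50.

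**Figure D3:**
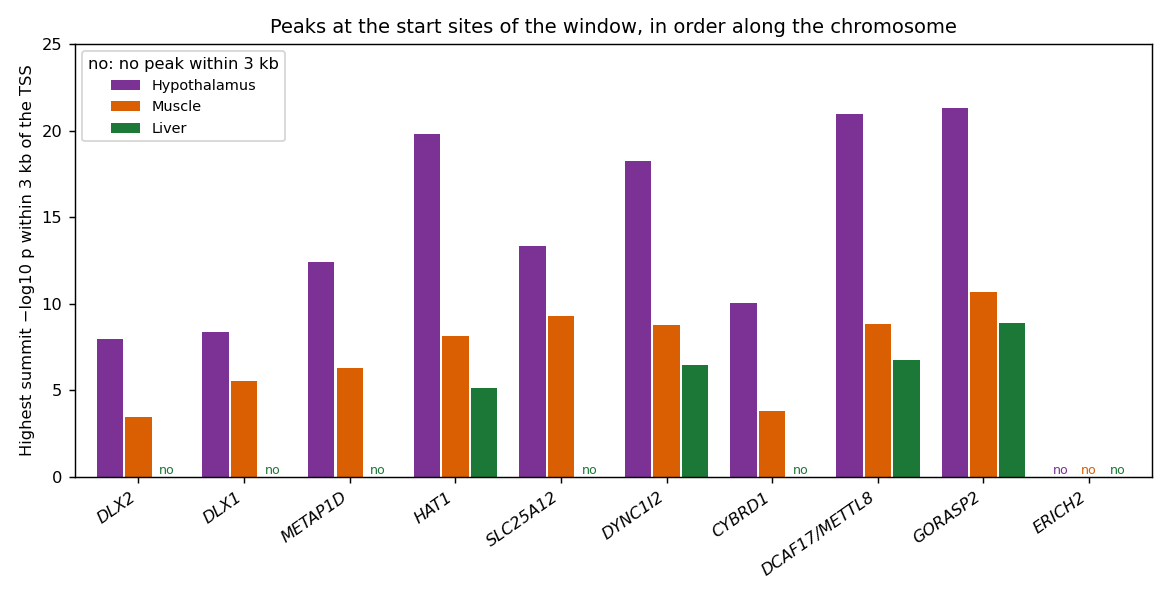
Highest summit −log10 p of any peak within 3 kb of each start site (vertical axis, from 0) in hypothalamus, muscle and liver, with genes in order along the chromosome, the divergent DCAF17 and METTL8 drawn once, and "no" where a list has no peak there. Hypothalamus bars run from 7.96 at DLX2 to 21.3 at GORASP2, and liver has bars at HAT1, DYNC1I2, DCAF17/METTL8 and GORASP2 alone.

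Where the tissues shared a site, they shared its centre. Of 11 overlapping pairs of a hypothalamus and a muscle peak, the muscle peak lay wholly inside the hypothalamus peak in 11. The summits were 2 to 1237 bp apart, with a median of 24.0 bp. The hypothalamus peak was longer in each pair, with a median length ratio of 3.59 and a range of 1.39 to 13.0. Its AUC and its summit were higher in 11 of 11 pairs, and its percentile was higher in 10 of 11. The 4 liver peaks also lay inside their hypothalamus peaks, with summits 5 to 79 bp apart and a median length ratio of 2.34. The length ratio of muscle to liver peaks had a median of 1.03 over 4 pairs and ranged from 0.959 to 1.41. The muscle summit was higher in 4 of 4. Over chromosomes 1 to 29 and X, shared peaks had a median summit of 11.8 in hypothalamus, 5.70 in muscle and 4.68 in liver. Their median lengths were 1352, 629 and 497 bp, so longer and higher hypothalamus peaks were not particular to this window. Shares of such pairs over the whole lists were not computed.

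The pair with distant summits came from the one shared region away from a placed start site. This hypothalamus peak, at chr2:25270142-25272958, was 2817 bp long, with an AUC of 8365 and a summit of 9.13 at percentile 73.8. It lay between METTL8 and GORASP2, 240786 bp from the nearest placed start site, and the authors annotated the muscle peaks in it as distal intergenic. TLK1 lies between METTL8 and GORASP2 in the gene order of the other assembly but had no position here. Whether this region is at the TLK1 start site is therefore not known. The hypothalamus peak overlapped 2 muscle peaks. One, at chr2:25270575-25271223, had an AUC of 952 and a summit of 5.38, 19 bp from that of hypothalamus. The other, at chr2:25271335-25272118, had 285 and 3.20, at percentile 0.874 of the muscle list.

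Within the hypothalamus list the window peaks ranked slightly above the middle. Their median summit was 6.68 and their median percentile 57.6 (95% interval of the median by order statistics 39.9 to 68.6). The 10 shared peaks had a median summit of 12.9 and ranged from 7.96 to 21.3, and 7 of them were above percentile 75 of the list. The 43 hypothalamus-only peaks had a median summit of 5.82, ranged from 3.33 to 16.2, and had 6 above percentile 75. The same split held over chromosomes 1 to 29 and X, where shared peaks had a median summit of 11.8 and hypothalamus-only peaks one of 5.35. There, 62.1% of shared and 13.1% of hypothalamus-only peaks were above percentile 75, beside 70.0% and 14.0% in the window.

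Lengths followed the same split. The hypothalamus-only peaks of the window had a median length of 573 bp, and the shared ones of 1674 bp. In muscle the median percentile was 53.7 (21.7 to 86.4) over 17 peaks, with a median summit of 6.32 for 11 shared peaks and 4.52 for the 6 found in muscle alone. The 4 shared liver peaks had summits of 5.13 to 8.89, beside a median of 4.68 for shared liver peaks on the chromosomes.

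**Figure D4:**
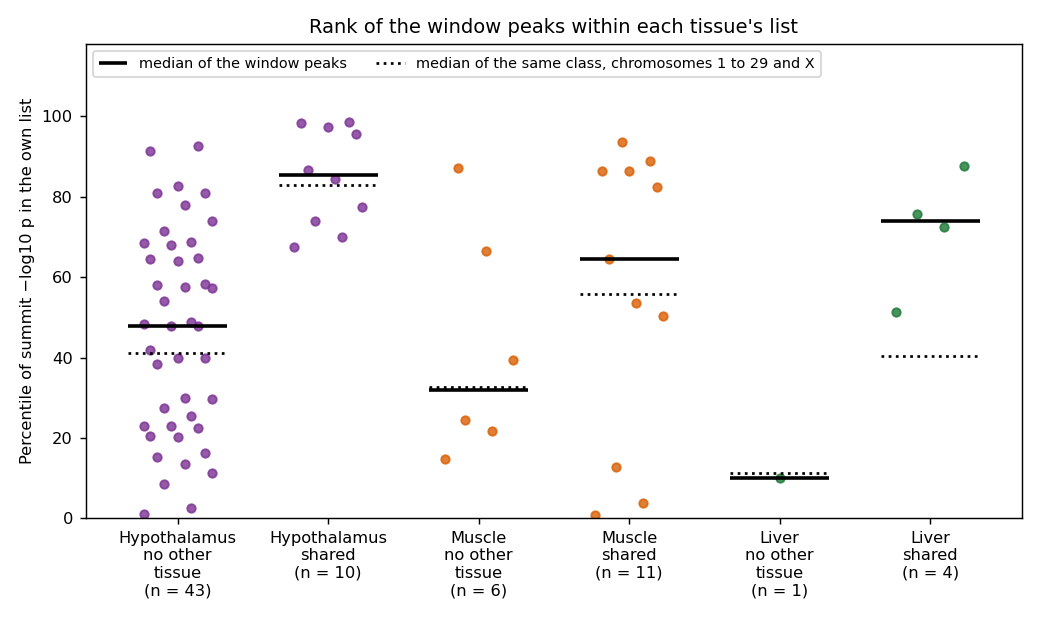
Percentile of the summit −log10 p in the own list (vertical axis) for each window peak, by tissue and by whether it overlapped a peak of another tissue, with solid lines at the median of the window peaks and dotted lines at the median of the same class over chromosomes 1 to 29 and X. The 10 shared hypothalamus peaks lie above percentile 67, while the 43 hypothalamus-only peaks spread from percentile 1.14 to 92.6.

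Other hypothalamus-only peaks lay away from the DLX pair and GAD1. Between DYNC1I2 and CYBRD1 there were 5 in 91.3 kb, or 54.7 per Mb (17.8 to 128, which holds the 27.1 of the chromosomes), with summits of 4.02 to 11.1 and the highest at chr2:24843621-24844515. Inside METTL8, a peak at chr2:25109641-25110227 had an AUC of 2971 and a summit of 11.8 at percentile 82.8, and one at chr2:25040601-25040901 had a summit of 9.15. The 410 kb from METTL8 to GORASP2 held 5 hypothalamus peaks, 12.2 per Mb, of which 4 were hypothalamus-only. These peaks, too, are named after their values were seen.

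Beyond ERICH2 the window thinned out, with 5 hypothalamus peaks in 723 kb, or 6.92 per Mb (exact Poisson 95% interval 2.25 to 16.1). The strongest pair is named here after its values were seen. The peak at chr2:26111824-26112932 had an AUC of 6552, the largest of the hypothalamus-only peaks, and a summit of 15.5 at percentile 91.4. Another, at chr2:26317625-26318954, had an AUC of 1827 and a summit of 8.65. The longest hypothalamus gap of the window, 418 kb at chr2:25694261-26111823, lay here, at the 98.9th percentile of all gaps between hypothalamus peaks on a chromosome. The median gap was 22.5 kb in the window and 9.59 kb over the chromosomes.

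None of the 6 muscle-only peaks was within 3 kb of a placed start site, and genes without a position could not be checked. Besides the one upstream of DLX2, the authors placed 3 in introns. The one in SLC25A12, at chr2:24669600-24669814, had an AUC of 249 and a summit of 3.89. In METTL8, the peak at chr2:25089870-25090328 had 993 and 6.48, and the peak at chr2:25101801-25102085 had 322 and 4.22. The other 2 were distal intergenic and fell in the long hypothalamus gap. The peak at chr2:25992734-25993168 had an AUC of 471 and a summit of 4.81. The peak at chr2:26063033-26063596 had 2000 and 8.97, at percentile 87.2, and was the strongest muscle-only peak of the window, 48228 bp from the nearest hypothalamus peak.

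The single liver-only peak, at chr2:25520412-25520793, was distal intergenic, with an AUC of 290 and a summit of 3.69 at percentile 10.0 of the liver list. It lay between a pair of hypothalamus peaks, 767 bp from one and 1841 bp from the other. With peaks within 1 kb counted as shared, the window had no liver-only peak.

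The hypothalamus and muscle peaks nearest to the window on its DLX2 side overlapped each other, at chr2:24178513-24180047 with a summit of 15.4 and chr2:24178705-24179485 with a summit of 5.27, and lay 20.0 and 20.5 kb outside it. The nearest liver peak on that side was 131 kb outside. On the other side the first peaks followed 30.8, 48.4 and 117 kb after the window in hypothalamus, muscle and liver. No peak crossed either end of the window.

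Other genes of GABA signalling could be read only in small part. Of 116 genes in lists of GABA handling, the DLX family, GABAergic lineage factors, GABA receptors and cell type markers, 9 had a position in the annotation used here. They include DLX1 and DLX2 themselves, and TBR1, OLIG1, DES and TF, which were listed as markers of other cells. The remaining placed genes were SLC6A11, listed for GABA handling, SST, listed for inhibitory neuropeptides, and TAL1, listed for GABAergic lineage factors. Of these, SLC6A11 alone had a peak, and its list is not one of neuron markers. Of all 9, 7 had a hypothalamus peak within 3 kb of the start site, 3 a muscle peak (DLX1, DLX2 and DES) and 0 a liver peak. Over all genes with a position the shares were 80.9%, 72.2% and 61.7%. The hypothalamus count was thus close to that background, and the other counts rest on 9 genes. SLC6A11, the GABA transporter GAT3, had 2 hypothalamus peaks with a highest summit of 7.49 and no peak of another tissue. TBR1, a factor of glutamatergic neurons, had 1 hypothalamus peak with a summit of 6.69. OLIG1, a factor of oligodendrocytes, had 2 with a highest summit of 14.0, and muscle and liver had none there. No list had a peak at SST, which encodes somatostatin, or at TAL1, a lineage factor.

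The markers checked the tissue labels in the same small part. DES, the desmin gene of muscle, had 4 muscle peaks with a highest summit of 7.60 and 1 hypothalamus peak with a summit of 3.71 at percentile 6.07. TF, which encodes transferrin and was listed for hepatocytes but is also made by oligodendrocytes, had 3 hypothalamus peaks with a highest summit of 19.8 and no liver peak. TF was the 1 liver marker that could be placed, so the liver label could not be checked further, and the other liver markers were not analysed here.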

How the data were processed

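ATAC-seq of 3 heifers per tissue (9 libraries) was analyzed from 3 deposited consensus peak lists. The reference of the authors was ARS-UCD1.2, to which HISAT2 placed each read at up to several sites. Their peak caller was Genrich 0.6.1 (version per the submitters' processing notes), which removed PCR duplicates, left out mitochondrial reads and combined the heifers by Fisher's method at p = 0.01. The signal of each deposited peak is its AUC, and the deposited −log10 p is that of the summit, without correction for multiple tests. Neither was scaled between lists. Depth per library is not in the lists, and its effect on the values was not tested.

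Peaks overlapping the window were selected with starts printed from 1. Overlap of at least 1 bp counted as shared. Percentiles are the percent of the own list with a lower value, over all sequences of the list. Shares have Wilson 95% intervals. Start sites and features came from the part of the authors' annotation used here, and the study's 3 kb set promoters. Python 3.11.15, numpy 2.4.6, pandas 2.3.3, scipy 1.17.1 and matplotlib 3.10.9 were used, and the overlap code was tested on simulated data.

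The members and lists were chosen with earlier results of these data known. The rule for sites to name was every peak at DLX1, DLX2 and GAD1 (GAD1 had no position, so its interval was described), the other start sites, the 5 peaks with the largest AUC per tissue, muscle-only and liver-only peaks, and the listed genes with a position. Some further peaks were picked for their values, and the text says so. Alternatives were a summit of at least 5, equal numbers of peaks, other overlap rules, AUC ranks and 1 kb promoters. No test between tissues was made. Motif counts and sequences were not analysed here.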

Additional observations from a re-analysis of the deposited data

How the results depend on the processing

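Of 42 alternative values over 12 results, 33 stayed within 1.5 times the reported count or within the interval of the reported median, and 9 moved. With the 22291 strongest peaks of each list by summit, the window held 15 hypothalamus peaks in place of 53 and 10 muscle peaks in place of 17. Of these, 8 and 3 were found in no other tissue. At the start sites, 2 of the 9 listed genes with a position kept a hypothalamus peak, and 2 kept a muscle peak. The lowest hypothalamus summit kept was 8.68, so DLX1 (8.38) and DLX2 (7.96) both lost their hypothalamus peaks. The lowest muscle summit kept was 5.05, so the muscle peak at DLX1 (5.57) stayed and that at DLX2 (3.47) did not. With a summit of at least 5, the window held 10 muscle peaks, 2 of them in muscle alone, and 0 liver-only peaks. Liver-only peaks were also 0 with peaks within 1 kb counted as shared. Equal numbers and a higher summit keep fewer peaks by construction, and the shares without overlap over all peaks at the alternative settings were not computed. The liver median percentile ranged from 49.6 by AUC per bp to 87.1 on chromosomes 1 to 29 and X, beside 72.5 as reported, and 5 peaks are too few for a 95% interval of the median, so their whole range stood in for it. No paired analysis was possible because each list is 1 consensus of the 3 heifers, and for the same reason no heifer could be left out. The planned motif counts were not run, since no genome of this build was used here. The lists start at an AUC of 200.0, so the absence of a peak shows only that no stretch passed that level.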
